A study of Mus musculus with 10 samples.

Results

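The AP-1 and immediate early genes examined here are 10 genes: Fos, Fosb, Jun, Junb, Jund, Atf3, Egr1, Egr2, Ier2 and Dusp1. They were taken by name, with earlier results of these data known. A probe set, the array's unit of measurement, was assigned to a gene when the platform annotation gave that gene and no other, and of several probe sets the one with the highest mean signal over all arrays was used. The 10 genes had 13 probe sets, out of 18193 genes with a named probe set in the series, and 9 of the 10 passed the filter on low signals. Fosb was below it.

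The cells were primary lymphoma cells, taken from the enlarged lymph nodes of mice of the genotype Emu-myc;Suv39h1-/-, and were compared with and without Adriamycin (ADR, doxorubicin), a topoisomerase poison used in lymphoma therapy. Emu-myc expresses the c-Myc oncogene in the B-cell lineage, and Suv39h1 encodes a histone H3 lysine 9 methyltransferase that all samples lacked. All cells also carried a retroviral Bcl2, which protects from apoptosis, were selected with puromycin for 48 h and grew on NIH 3T3 fibroblasts irradiated with 20 Gy, so that feeder RNA can be part of a sample. The untreated group holds 5 arrays (1 from each of lymphoma_5783, lymphoma_7890, lymphoma_9250, lymphoma_1032 and lymphoma_4936), and the ADR group holds the arrays of the same 5 lymphomas after 5 days in vitro at 0.05 µg/ml. Ages of the mice and whether each lymphoma number is a separate animal were not given in the labels. The p-values of a change with ADR therefore measure its spread between these lymphomas. A change with ADR is here a change within the mutant background.

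Immediate early genes are transcribed within minutes of a growth factor, antigen receptor or stress signal, without new protein synthesis, and many of their transcripts are short-lived. Mitogen-activated protein (MAP) kinases reach them through serum response factor with its ternary complex partners and through CREB. AP-1 is a dimer of Fos, Jun and related basic leucine zipper proteins, while Egr1 and Egr2 are zinc finger factors and Dusp1 is a phosphatase that turns MAP kinases off. In B cells these genes respond to the antigen receptor, and in many cell types to DNA damage through the stress kinases. An array taken after 5 days measures the RNA then present, not an early pulse and not the phosphorylation that regulates the proteins.

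All values are log2 signals, and a change is the log2 difference of ADR minus untreated within a lymphoma. The median signal was 4.43 to 4.50 for 9 of the arrays, and the ADR sample of lymphoma_1032 had a lower one, 4.15. Of the 10 fixed B-cell markers 9 were measured, and 8 of these exceeded the table's overall median signal, 4.43, on all 10 arrays. The mean B-cell marker signal ranged from 7.62 to 9.59 over the untreated arrays and from 7.01 to 9.39 over the ADR arrays, lowest in lymphoma_1032 in both. In bulk RNA, fewer cells of a type and less RNA per cell cannot be told apart.

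ADR did not shift these genes in 1 direction over the 5 lymphomas. The mean change was below 0 for all 10 genes, from -0.01 for Jund to -0.89 for Atf3, with a median of -0.28, but it was above 0 for Junb (0.01), Jund (0.07) and Fosb (0.03) when each array was centred on its median, and no gene had the same sign of change in every lymphoma. Leaving out 1 lymphoma moved the median of the 10 genes to -0.11 without lymphoma_5783, -0.12 without lymphoma_9250 and -0.42 without lymphoma_7890. Over all 11472 genes tested the mean was below 0 for 55.2% and the median was -0.02. Of these genes 4.67% were higher and 4.82% lower in all 5 lymphomas. The count of 0 of the 10 genes with 1 sign in every lymphoma is near that share. In the paired limma fit 0 of the 9 genes tested rose and 0 fell at an adjusted p of 0.05, and the background was 0% in each direction (0 of 11472 genes). At an unadjusted p under 0.05, 1 of the 9 genes was lower, Atf3, where 4.52% of all genes were lower and 3.97% higher, 518 and 455 genes. This split turned to 295 lower and 881 higher with each array centred on its median. The untreated and ADR values overlapped for each of the 10 genes, as they did for all but 0.357% of the genes tested.

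**Figure D1:**
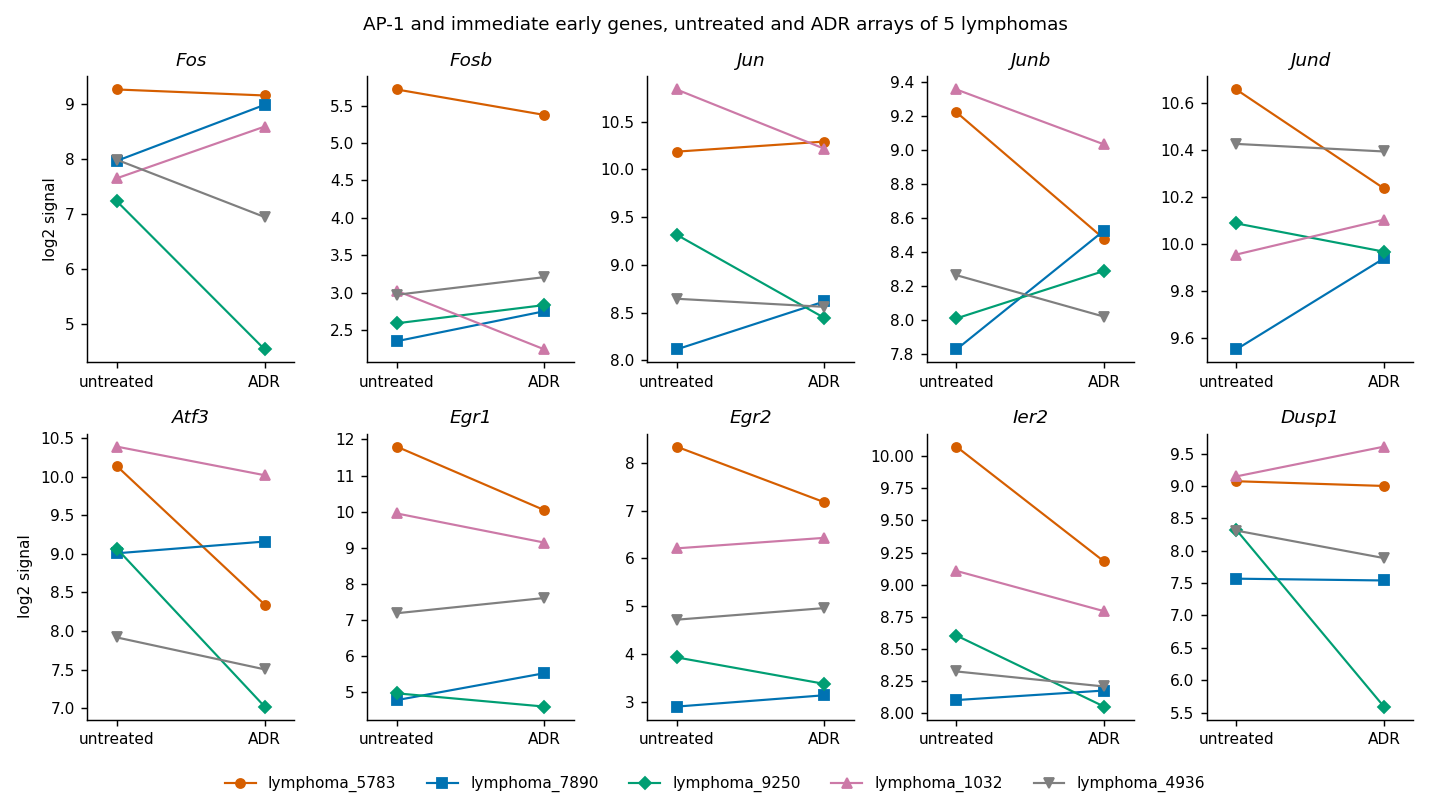
Log2 signal (vertical axis, its own scale in each panel) of the 10 genes on the untreated and the ADR array of each of 5 lymphomas, with a line joining the arrays of 1 lymphoma. The lines of Egr1 and Egr2 are widely spread, except those of lymphoma_7890 and lymphoma_9250. These cross for Egr1 and end close together with ADR for Egr2. The steepest lines are those of Fos and Dusp1 in lymphoma_9250, with changes of -2.69 and -2.73.

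The lymphomas differed in direction. In lymphoma_7890, 9 of the 10 genes had a higher signal with ADR, with a median change of 0.39, and Dusp1 had a change of -0.03. In lymphoma_5783, 9 of 10 had a lower signal with a median of -0.58, and Jun had a change of 0.11. In lymphoma_9250, 8 of 10 were lower with a median of -0.55, with Fosb and Junb above 0. The medians were -0.32 in lymphoma_1032, with 6 lower, and -0.10 in lymphoma_4936, with 7 lower. Over all genes tested the median change was lowest in lymphoma_1032, at -0.17, and lay from -0.02 to 0.06 for the 4 other lymphomas. Of all genes tested 46.3% were lower in lymphoma_5783, 51.5% in lymphoma_7890 and 53% in lymphoma_9250. The share was 65.6% in lymphoma_1032, so 6 of 10 lower is near it there, and 43.6% in lymphoma_4936. Each of these is 1 array against 1 array, with no replicate within a lymphoma.

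**Figure D2:**
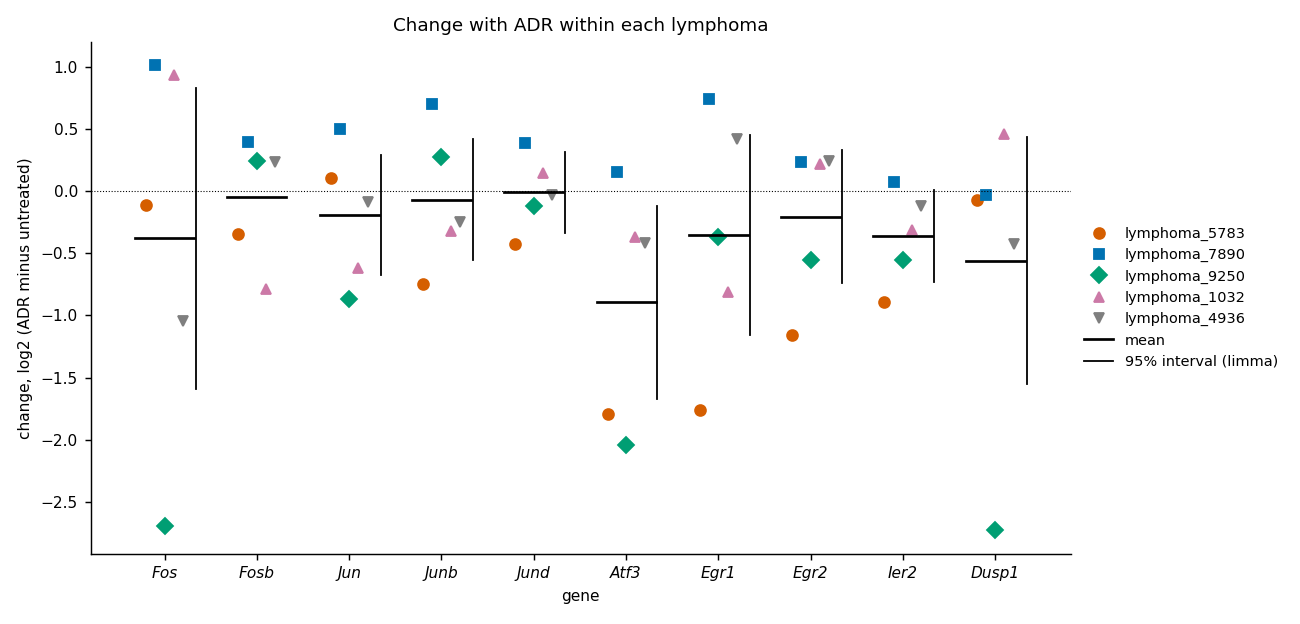
Change with ADR (log2, ADR minus untreated) of each gene in each of 5 lymphomas, with the mean as a horizontal bar and limma's 95% interval as a vertical line for the 9 genes tested. Squares of lymphoma_7890 lie above 0 for 9 genes, and only the interval of Atf3, from -1.67 to -0.12, leaves out 0 before adjustment over all genes.

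Fos, the founding member of the Fos family, binds DNA only with a partner such as Jun. Untreated, lymphoma_5783 had a signal of 9.26, lymphoma_7890 one of 7.96, lymphoma_9250 one of 7.22, lymphoma_1032 one of 7.65 and lymphoma_4936 one of 7.98, and the ADR signals were 9.15, 8.98, 4.53, 8.59 and 6.94 in the same order. The spread therefore widened from an SD of 0.76 to one of 1.94, with the ADR array of lymphoma_9250 far below the others. The mean change was -0.38 ± 1.55 (SD, n = 5), with a 95% interval from -1.59 to 0.84 and an adjusted p of 0.837 in limma. Without lymphoma_9250 the mean change was 0.20, the opposite direction.

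Fosb, which forms AP-1 dimers as Fos does, was above the table median in lymphoma_5783 only. Its signals there were 5.71 untreated and 5.37 with ADR, against 2.35 to 3.02 on the other untreated arrays and 2.24 to 3.21 on the other ADR arrays. Because 8 of its 10 values lay below the table median, where array signals say little about RNA, it was not tested in the main fit, and its mean change of -0.05 ± 0.50 (SD, n = 5) is a description. In lymphoma_5783 the mean fibroblast marker signal was also the highest of the lymphomas, at 6.29 untreated and 6.67 with ADR, against 4.69 to 5.39 and 4.67 to 5.65 elsewhere. The part of feeder RNA in the Fosb signal was not tested.

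Jun, the main partner of Fos and the target of the Jun kinases, had the highest signals in lymphoma_1032 and lymphoma_5783. The untreated values were 10.18, 8.11, 9.31, 10.84 and 8.64 in lymphoma_5783, lymphoma_7890, lymphoma_9250, lymphoma_1032 and lymphoma_4936, and the ADR values were 10.29, 8.62, 8.44, 10.22 and 8.56. All 4 arrays of lymphoma_5783 and lymphoma_1032 lay above the 6 others, and within each of these sets the lymphomas next to each other in level overlapped. The mean change was -0.19 ± 0.55 (SD, n = 5; 95% interval from -0.68 to 0.29, adjusted p = 0.779 in limma), and -0.02 without lymphoma_9250. A further probe set for Jun gave a change of -0.10 ± 0.51, with an opposite sign in lymphoma_4936 only.

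Junb, which in many settings opposes Jun on proliferation genes, had a narrower range of signals with ADR than without. Its untreated signals were 9.22, 7.83, 8.01, 9.36 and 8.26 in the same order of lymphomas, and its ADR signals were 8.48, 8.53, 8.29, 9.03 and 8.02. The SD over lymphomas was 0.71 untreated and 0.37 with ADR, a difference that was not tested. The change was -0.07 ± 0.56 (SD, n = 5) with a 95% interval from -0.56 to 0.42 (adjusted p = 0.939 in limma), and 0.10 without lymphoma_5783.

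Jund, the Jun family gene that is expressed without stimulation in most cells, was the steadiest of the 10 genes. It ranged from 9.55 in lymphoma_7890 to 10.66 in lymphoma_5783 in untreated cells and from 9.94 to 10.39 with ADR. The change of -0.01 ± 0.30 (SD, n = 5) had a 95% interval from -0.33 to 0.32 (adjusted p = 0.989 in limma). The other Jund probe set was below the table median on all 10 arrays and says nothing of the gene.

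Atf3, a stress-induced factor of the ATF family that dimerizes with Jun proteins, had the largest mean decrease of the 9 genes tested. Untreated, the signals of lymphoma_5783, lymphoma_7890, lymphoma_9250, lymphoma_1032 and lymphoma_4936 were 10.13, 9.01, 9.06, 10.39 and 7.92, and with ADR they were 8.34, 9.16, 7.02, 10.02 and 7.50. It was lower in 4 of 5 lymphomas, most in lymphoma_9250 (-2.04) and lymphoma_5783 (-1.79), and had a change of 0.15 in lymphoma_7890. Of all genes tested 26% were lower in at least 4 of 5 lymphomas. The mean change of -0.89 ± 0.97 (SD, n = 5), a 1.86-fold lower level, had a limma 95% interval from -1.67 to -0.12, an unadjusted p of 0.0298 and an adjusted p of 0.565. Leaving out 1 lymphoma gave -0.61 to -1.15, with unadjusted p of 0.0975 without lymphoma_5783 and 0.0915 without lymphoma_9250 in limma.

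Egr1, a zinc finger factor that reports MAP kinase activity in lymphocytes, had the widest range of untreated signals of the 10 genes. Its untreated signals were 11.80 in lymphoma_5783, 9.95 in lymphoma_1032, 7.18 in lymphoma_4936, 4.96 in lymphoma_9250 and 4.77 in lymphoma_7890, a range of 131-fold. The ADR signals in that order were 10.04, 9.14, 7.60, 4.59 and 5.52. Only lymphoma_9250 and lymphoma_7890 overlapped, so that the order of lymphomas was otherwise the same with ADR. The change with ADR was -0.35 ± 1.00 (SD, n = 5; 95% interval from -1.16 to 0.45, adjusted p = 0.757 in limma). It rested on lymphoma_5783, where the signal was lower by 3.39-fold: without that lymphoma the mean change was -0.0017.

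Egr2, its relative with a role in the maturation and tolerance of lymphocytes, followed the same lymphomas. The untreated signals were 8.33 in lymphoma_5783, 6.21 in lymphoma_1032, 4.72 in lymphoma_4936, 3.94 in lymphoma_9250 and 2.91 in lymphoma_7890, and the ADR signals were 7.17, 6.43, 4.96, 3.38 and 3.15. The values of no 2 lymphomas overlapped. The 4 values of lymphoma_9250 and lymphoma_7890 lay below the table median, where differences between signals are uncertain. The change was -0.20 ± 0.63 (SD, n = 5; adjusted p = 0.794 in limma) and 0.04 without lymphoma_5783. The other Egr2 probe set had nearly the same mean signal and a change of -0.50 ± 0.65, and it was lower with ADR in 4 lymphomas where the first was lower in 2.

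Ier2, a short immediate early gene that encodes a nuclear protein, was lower in 4 of 5 lymphomas and had a change of 0.07 in lymphoma_7890. It went from 10.07 to 9.18 in lymphoma_5783, from 8.61 to 8.05 in lymphoma_9250, from 9.11 to 8.79 in lymphoma_1032, from 8.33 to 8.21 in lymphoma_4936 and from 8.10 to 8.18 in lymphoma_7890. The mean change of -0.36 ± 0.38 (SD, n = 5) had a 95% interval from -0.73 to 0.01 and an adjusted p of 0.577 in limma, and without lymphoma_5783 the mean change was -0.23. Values ranged from 8.10 to 10.07 in untreated cells and from 8.05 to 9.18 with ADR, and the groups overlapped.

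Dusp1, which dephosphorylates p38, Jun kinases and ERK, had a large difference in 1 lymphoma. In lymphoma_9250 the signal went from 8.32 to 5.59, a 6.64-fold lower level, while the change was -0.07 in lymphoma_5783, -0.03 in lymphoma_7890, 0.46 in lymphoma_1032 and -0.42 in lymphoma_4936. Its levels were highest in lymphoma_1032, at 9.15 untreated and 9.61 with ADR, and in lymphoma_5783, at 9.07 untreated and nearly the same with ADR, given the change of -0.07. They were 7.57 and 7.54 in lymphoma_7890 and 8.31 and 7.89 in lymphoma_4936, so that the untreated and ADR values overlapped. The mean change was -0.56 ± 1.25 (SD, n = 5; 95% interval from -1.55 to 0.43, adjusted p = 0.696 in limma), and -0.02 without lymphoma_9250.

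Fos, Dusp1 and Atf3 were all lower with ADR by more than 2-fold in lymphoma_9250, with 6.46-fold, 6.64-fold and 4.12-fold lower signals. These were 3 of the 9 genes tested, where 2.32% of all genes tested were lower by 2-fold or more in that lymphoma. In lymphoma_5783 it was another set of 3, Atf3, Egr1 and Egr2, where 3.02% of all genes were. Lymphoma_1032 had 7.76% of all genes lower by 2-fold or more and none of the 9, lymphoma_4936 had Fos (0.994% of all genes) and lymphoma_7890 had none (0.488%). In the other direction Fos in lymphoma_7890 was the only case, where 1.14% of all genes were higher by 2-fold or more. None of the 9 was in lymphoma_5783 (4.6% of all genes), lymphoma_9250 (1.06%), lymphoma_1032 (1.61%) or lymphoma_4936 (2.19%). Beside these changes, the tested macrophage markers had a mean change of -0.15 in lymphoma_9250 and 1.30 in lymphoma_5783, the fibroblast markers of 0.07 and 0.76 and the B-cell markers of 0.51 and -0.20. In lymphoma_5783 most macrophage markers below the filter on low signals went the other way. The changes there were -2.91 for C1qa, -2.40 for C1qb, -1.30 for C1qc and -2.94 for Mrc1, but 0.41 for Cd163. Cd14, which was tested, also had a change of -1.30. All these markers were named after their values were seen. Over all 14 macrophage markers measured, the mean signal there was 7.06 untreated and 7.25 with ADR, and over the 14 fibroblast markers measured it was 6.29 and 6.67. Their part in the changes was not tested.

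The 250 bases before the transcription start of the 3 genes that were lower by more than 2-fold in lymphoma_9250 are shown because these genes are known targets of CREB and ATF factors, which bind the cAMP response element. They come from the RefSeq table of mouse build GRCm38.p6, 5′ to 3′ on the strand of the gene, with capitals for each match to a searched motif. Fos is on the plus strand at chr12:85473640-85473889, Dusp1 on the minus strand at chr17:26508473-26508722 and Atf3 on the minus strand at chr1:191183334-191183583, each ending at the base before the start.
Fos: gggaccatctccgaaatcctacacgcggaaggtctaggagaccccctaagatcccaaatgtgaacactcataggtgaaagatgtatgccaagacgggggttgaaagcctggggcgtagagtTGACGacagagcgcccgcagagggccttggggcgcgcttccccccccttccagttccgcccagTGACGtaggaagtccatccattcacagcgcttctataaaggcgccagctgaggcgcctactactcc
Dusp1: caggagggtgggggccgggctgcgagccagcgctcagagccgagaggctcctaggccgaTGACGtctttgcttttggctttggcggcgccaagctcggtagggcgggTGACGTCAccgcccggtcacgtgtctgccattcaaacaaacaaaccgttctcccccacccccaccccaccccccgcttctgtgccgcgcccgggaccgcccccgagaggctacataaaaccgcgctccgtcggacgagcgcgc
Atf3: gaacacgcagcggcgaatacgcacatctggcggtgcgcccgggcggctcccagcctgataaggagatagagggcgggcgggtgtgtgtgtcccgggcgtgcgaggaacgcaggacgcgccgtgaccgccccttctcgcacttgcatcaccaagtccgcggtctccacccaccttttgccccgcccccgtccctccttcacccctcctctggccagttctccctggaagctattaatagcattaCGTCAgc
The motifs were searched on both strands of windows that also held the 50 bases after the start. The half-site TGACG was found 2 times in Fos, 129 and 66 bases before the start, 3 times in Dusp1 and 1 time in Atf3, on the minus strand 7 bases before the start. The full element TGACGTCA, which holds the half-site on both strands, was in Dusp1, 143 bases before the start.

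Windows were available for 8 of the 10 genes, 12 windows in all with 5 for Egr2, and none for Egr1 or Ier2. A gene was counted when any of its windows matched, while the background is a share of windows, so the 2 differ in unit. The half-site was in those of 6 genes (Fos, Fosb, Junb, Atf3, Egr2 and Dusp1), and in 20.8% of the 32817 windows of the table. The full element was in 1 of the 8 genes and in 1.79% of windows. The CArG box, the site of serum response factor, was in 1 gene, Egr2 (1.63% of windows), the Egr site GCGGGGGCG was in 1, Fosb (2.91%), and the AP-1 site TGACTCA was in 0 (5.2%). Genes with smaller changes in lymphoma_9250 also held the half-site: Egr2 had a change of -0.55 there, Junb one of 0.28 and Fosb one of 0.24. Jun and Jund, with no half-site in their windows, had changes of -0.87 and -0.12 there. A link between these sites and the changes was not tested. A match, or the lack of one, describes the letters in this window only, and sites further from the start were not searched.

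The lymphomas differed from each other in the level of 5 genes. A limma F test of the 4 lymphoma terms, chosen after the values had been seen, called 5 of the 9 genes at an adjusted p of 0.05: Egr2 (adjusted p = 0.00141), Egr1 (0.00171), Jun (0.00927), Ier2 (0.0175) and Atf3 (0.0445). Of all genes tested 26.9% were called. The untreated and the ADR array of a lymphoma stood as its replicates here, and the error was the spread of the change. A difference between lymphomas therefore cannot be told apart from one between their cultures. Fos (0.0895), Dusp1 (0.0964), Junb (0.0995) and Jund (0.136) were not. The calls of Egr1, Egr2 and Jun held in every fit with the lymphoma block in which the gene was tested. That of Ier2 was lost without lymphoma_5783 (adjusted p = 0.0857), that of Atf3 without lymphoma_1032 (0.188) or lymphoma_4936 (0.117) and with array weights (0.102), and Dusp1 was called without lymphoma_9250 (0.0123).

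The spread between untreated lymphomas had an SD of 3.09 for Egr1, higher than for 99.9% of the genes tested, and of 2.12 for Egr2, higher than for 99.2%. A range of 16-fold or more among the untreated arrays occurred in 2 of the 9 genes, Egr1 and Egr2, and in 1.83% of all genes. The other genes tested had SDs from 0.43 for Jund, above 63.0% of genes, to 1.11 for Jun, above 94.4% of genes. Of the 9 genes Fos and Dusp1 had the widest spread of the change, with SDs of 1.55 and 1.25 that lay above 99.7% and 99.2% of genes. Egr1 and Atf3 followed, with SDs of 1.00 and 0.97 above 97.4% and 96.9%. The SD of Dusp1 rested on lymphoma_9250, with a change of -2.73 against -0.42 to 0.46 elsewhere. The median SD of the change was 0.63 for the 9 genes and 0.33 over all genes.

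**Figure D3:**
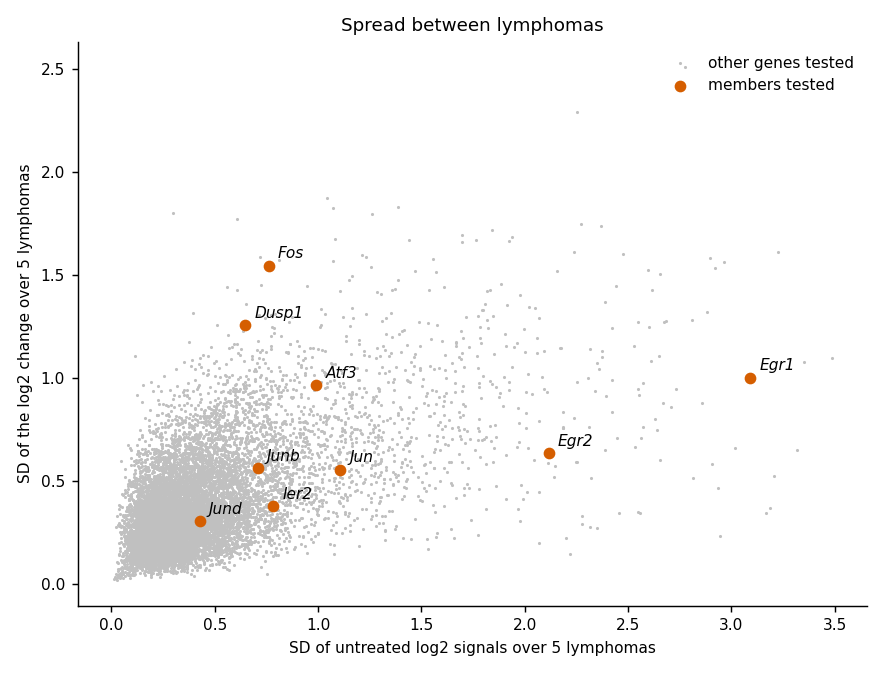
SD of the untreated log2 signals over 5 lymphomas (horizontal axis) against the SD of the log2 change with ADR (vertical axis), for the 9 tested members in colour and all other genes tested in grey. Egr1 and Egr2 lie far to the right, at 3.09 and 2.12, and Fos and Dusp1 lie high on the vertical axis, at 1.55 and 1.25.

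Genes that act next to the 10 were taken from lists of other AP-1 partners, other immediate early genes, feedback inhibitors, upstream kinases and factors, and AP-1 target genes. None of their tested members passed: 0 of 7 AP-1 partners, 0 of 30 other immediate early genes, 0 of 14 feedback inhibitors, 0 of 21 upstream genes and 0 of 8 target genes rose or fell at an adjusted p of 0.05 in limma. At an unadjusted p under 0.05 there were 0, 8, 1, 1 and 3 such genes, where 973 of the 11472 genes tested had such a p (3.97% higher and 4.52% lower). Their median changes were -0.09, -0.10, -0.03, -0.03 and 0.41 against -0.02 over all genes. The small ones did not keep their sign: the AP-1 partners had a median of 0.14 without lymphoma_9250, the feedback inhibitors one of 0.05 with each array centred on its median and 0.13 without lymphoma_1032, and the upstream genes one of 0.05 with that centring. That of the other immediate early genes was -0.21 without lymphoma_7890 and -0.02 with the centring.

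Among AP-1 partners, the Fos relative Fosl2 had a change of 0.72 in lymphoma_7890, 0.86 in lymphoma_1032 and 0.26 in lymphoma_5783, but of -1.44 in lymphoma_9250 and -1.29 in lymphoma_4936. Its mean was -0.18 ± 1.11 (SD, n = 5; adjusted p = 0.898 in limma). Jdp2, a repressor that binds AP-1 sites, had a change of -1.26 in lymphoma_9250 and of 1.34 in lymphoma_5783. Batf3, an AP-1 factor of dendritic and B cells, had one of -1.17 in lymphoma_9250. These were the 3 of 7 partners tested that were lower by 2-fold or more in lymphoma_9250, where 2.32% of all genes were. Batf, which pairs with Jun proteins and IRF4 in lymphocytes, was at 10.21 untreated and 10.07 with ADR in lymphoma_1032 and between 7.02 and 8.93 on the other arrays. All 4 partners were named after their values were seen.

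A mean change below 0 occurred in 55.2% of all genes tested. Of the 30 other immediate early genes tested 10 had a mean change above 0 and 20 below. The 2 with 1 sign in all 5 lymphomas were Ptgs2, the inducible cyclooxygenase gene, and Gem, a small GTPase gene, where 4.67% of all genes were higher and 4.82% lower in all 5. Ptgs2 had a mean change of 1.01 ± 0.92 (SD, n = 5), from 0.06 in lymphoma_9250 to 2.24 in lymphoma_5783, and Gem one of -0.91 ± 0.90, from -0.07 in lymphoma_7890 to -1.89 in lymphoma_9250, each with an adjusted p of 0.565 in limma. The mean change of Ptgs2 was 0.54 when its probe sets were averaged. The nuclear receptor gene Nr4a2 had a change of -2.40 in lymphoma_9250 and -2.21 in lymphoma_5783, and the mean was -1.19 ± 1.12. Ier3, a survival gene of the early response, had a change of -2.12 in lymphoma_9250, -1.88 in lymphoma_4936 and a mean of -1.01 ± 1.04. In lymphoma_9250, 8 of the 30 were lower by 2-fold or more (2.32% of all genes), beside 3 of 30 in lymphoma_5783 (3.02%), 3 in lymphoma_1032 (7.76%), 2 in lymphoma_4936 (0.994%) and 0 in lymphoma_7890 (0.488%). In lymphoma_7890, 4 were higher by 2-fold or more (1.14% of all genes). Nr4a2 and Ier3 were named after their values were seen.

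**Figure D4:**
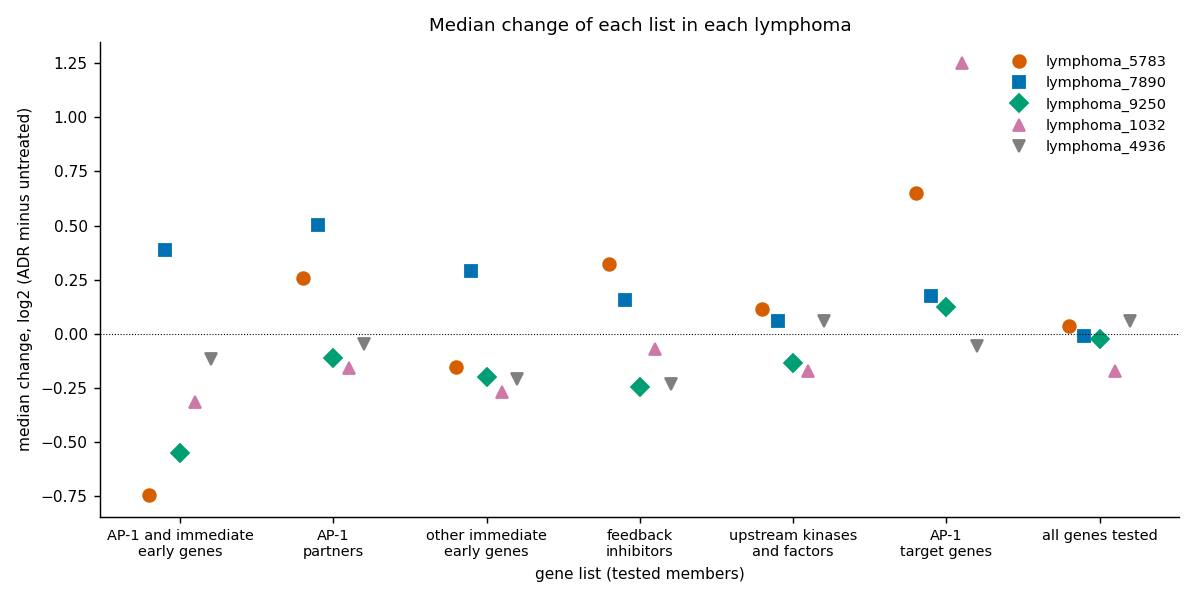
Median change with ADR (log2, ADR minus untreated) of the tested members of each gene list in each of 5 lymphomas, with all 11472 genes tested at the right. The 9 tested members spread from -0.75 in lymphoma_5783 to 0.39 in lymphoma_7890, while all genes stay between -0.17 and 0.06.

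Egr3, Dusp6 and Spry2, genes of the MAP kinase response, were picked after their values were seen because they were lowest in the same lymphomas as Egr1 and Egr2, so the likeness is a description with no test. Egr3 was at 7.34 untreated in lymphoma_5783, 7.91 in lymphoma_1032 and 6.25 in lymphoma_4936, but at 2.52 in lymphoma_7890 and 4.65 in lymphoma_9250. Dusp6, an ERK phosphatase that ERK itself induces, was at 8.54, 9.50 and 8.57 in the first 3 and at 4.76 and 3.04 in the last 2. Spry2, an inhibitor of receptor signalling to ERK, was at 4.85, 5.89 and 6.96 and at 1.94 and 1.85. With ADR each of the 3 genes again had its lowest values in lymphoma_7890 and lymphoma_9250, at 5.79 and below. Several of these low values, such as 2.52 for Egr3, 3.04 for Dusp6 and both of Spry2, lay below the table median. Other members of the same lists, also named after their values were seen, had another order: untreated Dusp5, a nuclear ERK phosphatase, was at 8.14 in lymphoma_9250 and 7.48 in lymphoma_1032, and Nr4a1, a nuclear receptor gene, at 8.08 and 6.68. The F test between lymphomas called 8 of 14 feedback inhibitors, 19 of 30 other immediate early genes and 8 of 21 upstream genes, where 26.9% of all genes were called. With ADR the mean changes were 0.46 ± 0.76 for Egr3, 0.35 ± 0.51 for Dusp6 and 0.16 ± 0.27 for Spry2 (SD, n = 5).

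**Figure D5:**
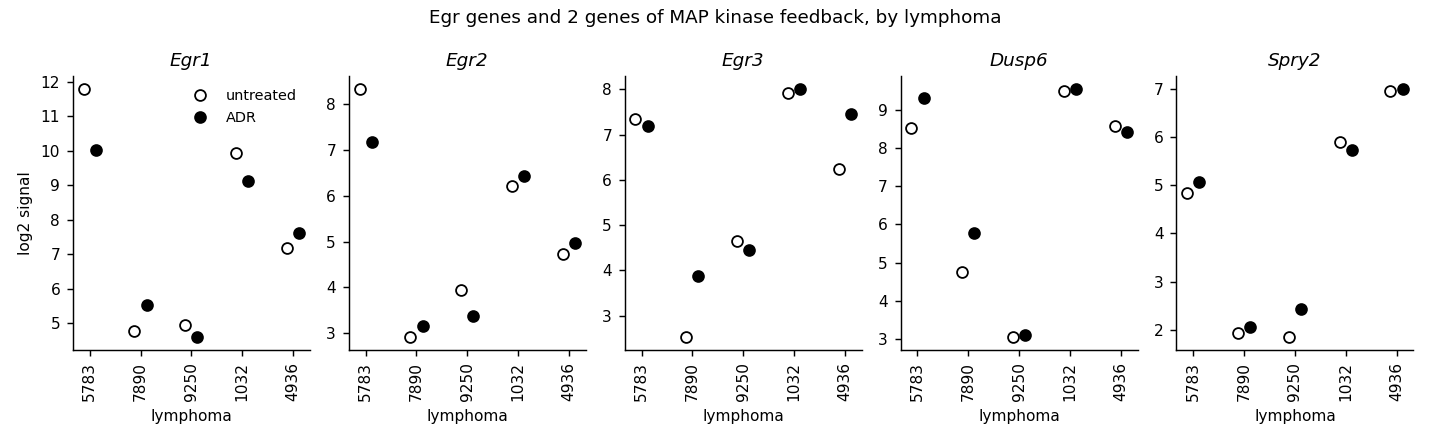
Log2 signal (vertical axis, its own scale in each panel) of Egr1, Egr2, Egr3, Dusp6 and Spry2 on the untreated array (open) and the ADR array (filled) of each lymphoma. In all 5 panels the values of lymphoma_7890 and lymphoma_9250 lie below those of the other lymphomas.

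Of the 13 AP-1 target genes measured 5 were below the filter. Named after their values were seen, these had mean changes of -0.17 (Mmp3), -0.17 (Mmp10), -0.15 (Plau), 0.03 (Il2) and 0.30 (Tnc). The AP-1 target list had a mean change above 0 for 7 of its 8 tested members, where 5143 of the 11472 genes tested had one. Its median change was 1.25 in lymphoma_1032 and 0.65 in lymphoma_5783, where the tested macrophage markers had mean changes of 1.05 and 1.30 (over all 14 measured, mean signals of 7.18 untreated and 7.74 with ADR, and of 7.06 and 7.25), and from -0.06 to 0.18 for the remaining 3. The part of other cells in it was not tested. Mmp9, a gelatinase gene, had a change of 1.10 ± 0.91 (SD, n = 5) and Ccnd1, cyclin D1, of 0.60 ± 0.52, each with an adjusted p of 0.565 in limma. Both were named after their values were seen. The 14 macrophage markers had a mean signal from 4.76 to 8.22 over the untreated arrays and from 4.90 to 8.23 over the ADR arrays, and Cd163 was never above the table median. The 14 fibroblast markers measured had one from 4.69 to 6.29 and from 4.67 to 6.67, with Lum never above it. T-cell, neutrophil and endothelial markers had 4, 2 and 2 tested members and 3, 4 and 4 that were never above the table median. Single markers, named after their values were seen, were high in lymphoma_1032. The neutrophil marker Lcn2 was at 12.76 untreated and 13.58 with ADR, S100a8 at 9.08 and 11.43, and the T-cell marker Cd5 at 11.26 and 10.71.

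The tested genes with the pattern most like that of Fos, by the root mean square difference over the 10 arrays of signals centred on each gene's mean, were Ccdc90b at 0.74, Stom at 0.78 and Myo7a at 0.78, where the median over 11463 genes was 1.40. For Jun they were Kdm5b at 0.28, Carhsp1 at 0.30 and Retreg1 at 0.33 (median 1.01), and for Egr1 St3gal6 at 1.02, Hmgn3 at 1.03 and Ltb, the lymphotoxin beta gene, at 1.10 (median 2.49). In lymphoma_9250, where Fos had a change of -2.69, those of its 3 nearest genes were -1.53, -1.11 and -0.78. Both the likeness and the order rest on 5 lymphomas with 2 arrays each.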

How the data were processed

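The authors deposited log2 expression signals of 45101 Affymetrix probe sets on 10 arrays, for which the submitters' processing notes name Partek and RMA. Their versions, the settings and the log base were not stated in the labels, and log2 was taken from the value range of 0.55 to 15.6. Of the probe sets 34945 had 1 gene symbol in the platform annotation, 932 several and 9160 none (64 are controls, left out). Of several probe sets of a gene, the brightest on average was used, and 18032 of the 18193 genes matched a RefSeq gene. Genes above the table median of 4.43 on at least 5 arrays were tested, 11472 in all. A paired fit in limma 3.58.1 (R 4.3.3) with the lymphoma as a block gave ADR minus untreated, with Benjamini-Hochberg adjustment over all genes tested and a threshold of 0.05. The lymphoma numbers in the labels give the pairing: deviations from the group means correlated within each pair (0.51 to 0.79), and the signals of every array correlated best with those of its own pair. RMA commonly brings arrays to one distribution, which can hide a change common to most genes. The deposited arrays were not fully on one distribution, with medians from 4.15 to 4.50. A change common to most genes may therefore be hidden or mixed with an offset between arrays. The precision is limited by 5 lymphomas per group.

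On simulated data of 11472 genes for this comparison, 22% of genes changed by 0.5 (log2) were recovered. Recovered were also 88% of those changed by 1, 98% of those changed by 2 and 100% of those changed by 3. The changed genes, 50 of each size, were picked at random and given independent normal noise. The 9 tested members varied more in their change, with a median SD of 0.63 against 0.33 over all genes. These shares therefore do not apply to the members. The members and lists were chosen with earlier results of these data known. The text names all 10 members, list genes with 1 sign in all 5 lymphomas or past the threshold, and the 3 genes most like Fos, Jun and Egr1. Other genes are marked as named after their values were seen. The F test between lymphomas was added after seeing the data. Alternatives were no replicate block, no filter, a stricter filter (6.21, the 70th percentile), averaging a gene's probe sets, a further quantile normalization, centring on array medians, array weights, a robust prior with a trend, and each lymphoma left out in turn.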

Additional observations from a re-analysis of the deposited data

Results flagged for a closer look

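Of 56 groups of 5 values examined for a single sample far from the others, 4 had one, and chance gives about 1 in 20. Fosb had its highest untreated signal, 5.71, in lymphoma_5783, far above the other untreated arrays. The change of Dusp1 was lowest in lymphoma_9250, at -2.73. The median change of the other immediate early genes was highest in lymphoma_7890, at 0.29. The mean signal of the neutrophil markers was highest on the ADR array of lymphoma_1032, at 6.46. On that array Lcn2 was at 13.58, S100a8 at 11.43 and Mmp8 at 9.89, and the rest of these markers at 4.57 or below. No explanation of these values was tested.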

How the results depend on the processing

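Of 116 recomputed changes of the 9 tested genes, 107 kept their direction and 9 reversed. Some of the 107 could not reverse, so this count overstates how steady the directions are. Leaving out the block or the filter, the stricter filter and the robust prior with a trend keep a gene's change the same by construction. So does averaging probe sets for a gene with 1 probe set. None of the 116 passed the threshold (adjusted p from 0.376 to 1.00 in limma). Junb turned to 0.014 with arrays centred on the median and 0.10 with array weights, and Jund to 0.073 and 0.036. Fosb, not tested, turned to 0.032 with that centring, 0.024 without lymphoma_5783 and 0.135 without lymphoma_1032. Leaving out 1 lymphoma gave ranges of -0.73 to 0.20 for Fos (0.20 without lymphoma_9250), -0.26 to 0.10 for Junb (0.10 without lymphoma_5783), -0.11 to 0.10 for Jund (0.10 without lymphoma_5783, 0.02 without lymphoma_9250) and -0.31 to 0.036 for Egr2 (0.036 without lymphoma_5783). The number of the 10 genes with 1 sign in every lymphoma ranged from 0 to 2, with 2 without lymphoma_7890 and 1 without lymphoma_1032. Without the replicate block the changes are the same by construction and 0 genes were called (for Atf3, -0.89 with an adjusted p of 1.00 in limma). Centring moved the median over all genes from -0.02 to 0.06. The F test between lymphomas called 4 to 6 of the 9 tested genes when 1 lymphoma was left out. Egr2 did not pass the stricter filter and has no value there. Low signals, as of Fosb and of Egr2 in lymphoma_7890, limit what a change can show.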
